A study of Mus musculus with 6 samples.

Results

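The mitochondrial genome transcripts were the 37 genes of the table whose symbol starts with mt-, out of 78409 genes in all. By their annotated class they were 2 rRNAs, 22 tRNAs and 13 protein-coding genes. They were measured by RNA-seq in 3 Ybx1cmKO hearts and 3 Control hearts of 11-month-old mice. Ybx1cmKO mice lack Ybx1 in cardiomyocytes, and the Control mice were their littermates. Ybx1 encodes a Y-box protein that binds RNA and DNA. The study asked which transcripts differ in hearts without it. The Cre driver, the alleles of the Control mice and the sex of the animals are not given in the labels. Whole hearts were used, so cells other than cardiomyocytes contributed RNA to both groups, and in such bulk samples fewer cells of a type and less RNA per cell cannot be told apart.

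The mitochondrial genome is a small circle that is transcribed from both strands into long precursors. The tRNAs lie between most of the rRNAs and mRNAs, and their excision by RNase P and RNase Z frees the transcripts on either side. The rRNAs and most of the mRNAs then receive short A tails. In the heart, where mitochondria fill a large part of each cardiomyocyte, mitochondrial mRNAs and rRNAs are among the most abundant RNAs. The 2 rRNAs build the mitochondrial ribosome, the tRNAs serve translation inside the organelle, and the 13 mRNAs encode subunits of respiratory complexes I, III and IV and of ATP synthase.

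The genes were matched by gene ID to the GENCODE M21 annotation of GRCm38, which gave all 37 a position on chromosome M. In it 28 genes lay on the plus strand, and 9 lay on the minus strand, which were mt-Nd6, mt-Tq, mt-Ta, mt-Tn, mt-Tc, mt-Ty, mt-Ts1, mt-Te and mt-Tp. The sequences below are GENCODE M21 transcripts, 5′ to 3′ in DNA letters. The first 6 are tRNA genes, the pair with the highest counts (mt-Tl1 and mt-Ti) and the 4 with the smallest p-values, and capitals mark the anticodon.
mt-Tl1, tRNA for leucine, chrM:2676-2750, plus strand: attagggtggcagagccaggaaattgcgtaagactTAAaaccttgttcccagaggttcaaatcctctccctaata
mt-Ti, tRNA for isoleucine, chrM:3706-3774, plus strand: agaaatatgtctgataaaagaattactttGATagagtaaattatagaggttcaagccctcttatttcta
mt-Tw, tRNA for tryptophan, chrM:4950-5016, plus strand: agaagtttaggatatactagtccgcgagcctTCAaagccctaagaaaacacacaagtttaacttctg
mt-Ta, tRNA for alanine, chrM:5018-5086, minus strand: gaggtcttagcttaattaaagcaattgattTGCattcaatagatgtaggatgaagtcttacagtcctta
mt-Ts1, tRNA for serine, chrM:6870-6938, minus strand: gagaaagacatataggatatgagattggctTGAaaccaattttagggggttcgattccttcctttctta
mt-Tp, tRNA for proline, chrM:15356-15422, minus strand: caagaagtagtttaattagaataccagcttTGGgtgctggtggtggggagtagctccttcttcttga

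The libraries were primed with anchored oligo(dT), so runs of A inside a transcript are part of its description. In the large rRNA, mt-Rnr2 (chrM:1094-2675), there were 4 runs of at least 6 A, and in the small rRNA, mt-Rnr1 (chrM:70-1024), there was none, its longest runs having 5 A. The windows below show these runs in capitals with their flanks, with positions counted from the first base of the transcript.
mt-Rnr2, bases 336 to 391: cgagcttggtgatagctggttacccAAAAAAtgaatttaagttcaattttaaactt
mt-Rnr2, bases 370 to 426: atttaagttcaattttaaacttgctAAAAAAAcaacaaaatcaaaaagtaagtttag
mt-Rnr2, bases 438 to 493: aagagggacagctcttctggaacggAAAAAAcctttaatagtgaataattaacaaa
mt-Rnr2, bases 1152 to 1207: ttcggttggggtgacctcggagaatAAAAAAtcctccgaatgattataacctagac
mt-Rnr1, bases 611 to 665: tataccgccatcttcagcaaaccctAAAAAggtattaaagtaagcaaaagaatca
mt-Rnr1, bases 646 to 700: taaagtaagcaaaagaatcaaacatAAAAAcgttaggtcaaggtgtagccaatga
Among 52042 nuclear transcripts at least as long as mt-Rnr2, the last 1582 bases held at least 1 such run in 53.1% and at least 4 in 4.3%. Among 70520 nuclear transcripts at least as long as mt-Rnr1, the last 955 bases held at least 1 in 39.76%. The motif searched was AAAAAA on the transcript strand, with longer runs counted once, and whether these runs were primed was not tested.

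The libraries held 13456753 to 15141525 counts in Ybx1cmKO hearts and 12270796 to 14524785 in Control hearts. Ybx1 was at 203, 171 and 110 normalised CPM (CPM after TMM scaling between libraries) in Ybx1cmKO hearts and at 849, 810 and 895 in Control hearts, so the groups did not overlap. Ybx1cmKO heart 3 stood apart from the other 5 libraries in its composition, with Malat1, a long nuclear RNA, at 561 normalised CPM there and at 3187 to 9831 in the others, so values that it moves most are also given without it. The 12 cardiomyocyte markers were all detected and summed to 27141 to 36960 normalised CPM in Ybx1cmKO hearts and 31708 to 38209 in Control hearts. The fibroblast markers summed to 1753 to 2342 in Ybx1cmKO hearts and 1445 to 1815 in Control hearts, with none of the 8 at 0. The macrophage markers summed to 120.4 to 167 in Ybx1cmKO hearts and 97.0 to 121 in Control hearts, and the erythroid markers to 3562 to 6856 in Ybx1cmKO hearts and 3040 to 4713 in Control hearts. All 8 fibroblast, 7 of 8 macrophage and all 7 tested erythroid markers had log2 fold changes above 0. So had 7 of 12 cardiomyocyte, 5 of 8 endothelial and 2 of 3 tested adipocyte markers. Of 8 smooth muscle and pericyte markers, 1 lay above 0 and 7 below. Over all genes 48.9% lay below 0, and the part of these markers in the results below was not tested.

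Mitochondrial genes took up a large part of each library. Their share of all counts was 46.6%, 49.1% and 35.2% in Ybx1cmKO hearts 1, 2 and 3 and 48.2%, 54.1% and 44.7% in Control hearts 1, 2 and 3. Ybx1cmKO heart 3 was the lowest of the 6, and the other Ybx1cmKO hearts lay within the range of the Control hearts.

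The classes differed in where that variation lay. Mitochondrial rRNA made up 24.4%, 21.7% and 10.7% of counts in Ybx1cmKO hearts and 24.5%, 26.3% and 20.5% in Control hearts (18.9% ± 7.26 and 23.7% ± 2.98, SD, n = 3 each). Mitochondrial mRNA made up 22.2%, 27.3% and 24.5% in Ybx1cmKO hearts and 23.7%, 27.7% and 24.2% in Control hearts (24.7% ± 2.56 and 25.2% ± 2.18, SD, n = 3 each). The rRNA share of heart 3 of the Ybx1cmKO group stood below all others, while its mRNA share lay among those of the Control hearts. Both classes overlapped between the groups. These mRNA shares use the genes' own rows and leave out their nuclear copies, described below. With the copies added, mRNA made up 34.2%, 41.3% and 36.7% in Ybx1cmKO hearts and 35.4%, 41.7% and 36.7% in Control hearts.

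On own rows the ratio of rRNA to mRNA counts was 1.098, 0.795 and 0.436 in Ybx1cmKO hearts and 1.03, 0.949 and 0.845 in Control hearts. It was highest in Ybx1cmKO heart 1 and lowest in Ybx1cmKO heart 3. The difference of the log2 ratio, -0.37 over all hearts, was -0.01 without Ybx1cmKO heart 3. With the copies added, the log2 ratio was -0.49, -0.93 and -1.78 in Ybx1cmKO hearts and -0.53, -0.66 and -0.84 in Control hearts.

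The tRNAs were the smallest class and the one whose share of all counts, without TMM scaling, did not overlap. They made up 0.0349%, 0.0379% and 0.0276% of counts in Ybx1cmKO hearts and 0.0396%, 0.0543% and 0.0448% in Control hearts. Every Ybx1cmKO heart lay below every Control heart, which in an exact permutation test (two-sided) of 3 against 3 hearts gives p = 0.1, its lower limit. The same limit holds for each ratio below whose groups did not overlap, and other ratios below did overlap. Of the counts on mitochondrial genes alone, tRNAs were 0.0749%, 0.0774% and 0.0786% in Ybx1cmKO hearts and 0.0822%, 0.1004% and 0.10005% in Control hearts, again without overlap. This last share does not depend on scaling between libraries, but the share of all counts does. The hearts nearest to each other in it, Ybx1cmKO heart 2 and Control heart 1, had TMM factors of 0.9025 and 1.0105. Divided by these factors, their tRNA shares of all counts change order, so the groups overlap after TMM scaling. The Wilson 95% interval of a share of all counts reached at most 0.028 percentage points to either side, and 0.00124 for the tRNAs. It covers counting error only. The libraries were primed with oligo(dT), and whether tRNA counts came from mature tRNAs or from longer precursors was not tested.

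**Figure D1:**
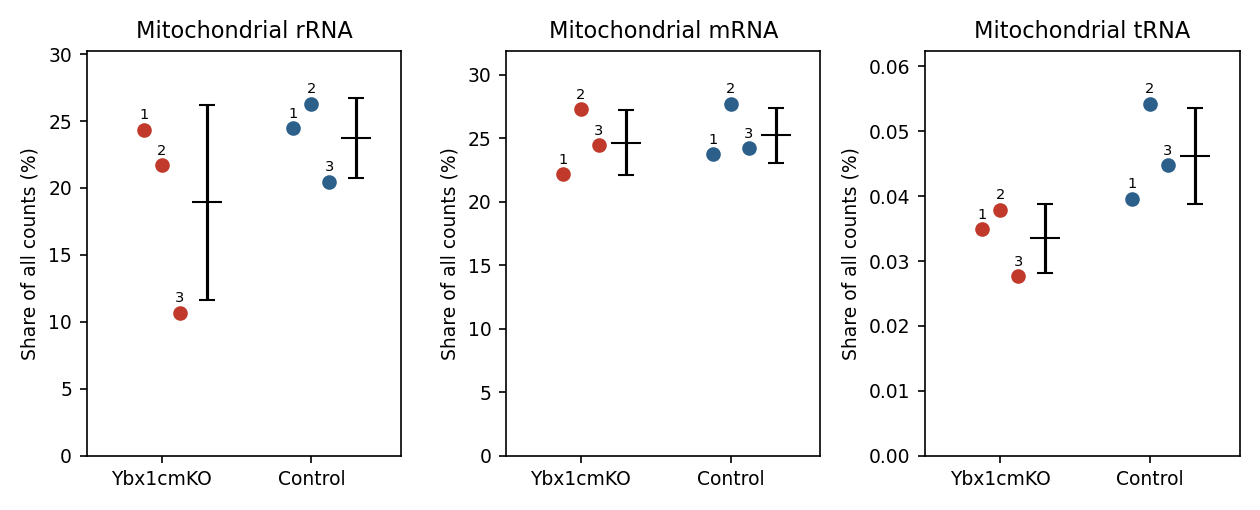
Share of all counts (%) taken by mitochondrial rRNA, mRNA and tRNA in each heart, from own rows without nuclear copies and without TMM scaling. Ybx1cmKO hearts are on the left and Control hearts on the right, with heart numbers above the points. Black bars give the mean ± SD of 3 hearts. The rRNA share of Ybx1cmKO heart 3 (10.7%) lies far below the others, the mRNA shares overlap, and the tRNA shares of the 3 Ybx1cmKO hearts lie below all 3 Control hearts.

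Of the 37 genes, 31 passed the filter on low counts (at least 1 CPM in at least 3 libraries), both rRNAs, all 13 mRNAs and 16 tRNAs. The 6 tRNAs that did not pass were mt-Tf with 25 counts over the 6 libraries, mt-Ty with 35.5, mt-Tl2 with 38.5, mt-Td with 51.6, mt-Tn with 119 and mt-Tc with 120.2. No member passed edgeR's quasi-likelihood test with Benjamini-Hochberg adjustment over 13717 genes (adjusted p from 0.694 to 0.987), and DESeq2 and limma called none of them either. In edgeR 0% of all genes passed (15 genes in DESeq2), and Ybx1 itself had an edgeR adjusted p of 0.148. At an edgeR unadjusted p under 0.05 there were 4 members of 31, beside 5.14% of all genes.

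All 31 tested members had a log2 fold change below 0, beside 48.9% of all genes, with a median of -0.39 beside 0.01 over all genes. With library totals alone, which moved the median of all genes to 0.17, in limma-trend and without the filter on low counts, 30 of 31 lay below 0 and mt-Co3 lay above. Without Control heart 2, which had the highest mitochondrial share, 27 of 31 lay below 0, and without Ybx1cmKO heart 3 there were 29. These genes are cut from shared precursors, so their directions are not independent. On normalised CPM none of the 31 had Ybx1cmKO values all below or all above the Control values, where 5.82% of all genes had them all below and 6.26% all above.

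**Figure D2:**
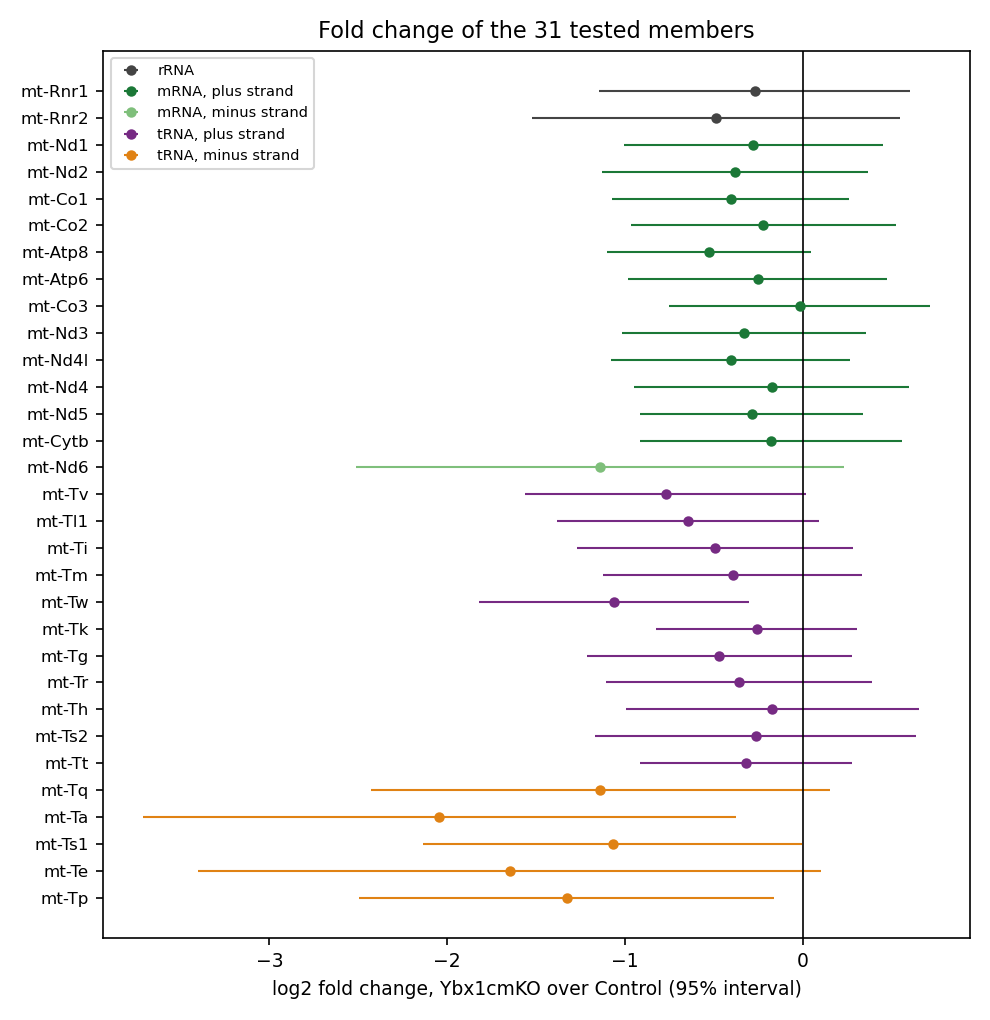
Log2 fold change of each of the 31 tested members, Ybx1cmKO over Control, with 95% intervals from edgeR, in genome order within each class and strand. All points lie left of 0, from -0.01 for mt-Co3 to -2.04 for mt-Ta, and with all 6 hearts the minus-strand genes lie farthest left with the widest intervals.

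The large rRNA had the most counts of the mitochondrial rows. mt-Rnr2 (ENSMUSG00000064339) was at 203280, 223260 and 81768 normalised CPM in Ybx1cmKO hearts and at 225730, 303480 and 182870 in Control hearts. Heart 3 of the Ybx1cmKO group was lowest by far, and the groups overlapped. Its log2 fold change was -0.49 (SE 0.45, edgeR adjusted p = 0.717), and -0.15 without that heart.

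The small rRNA had far fewer counts, also per base. mt-Rnr1 (ENSMUSG00000064337) was at 18886, 17265 and 7824 normalised CPM in Ybx1cmKO hearts and at 16288, 22900 and 13816 in Control hearts, which overlapped (log2 fold change -0.27, SE 0.38, edgeR adjusted p = 0.798). Without Ybx1cmKO heart 3 the sign turned, to 0.03. Counts of mt-Rnr2 over those of mt-Rnr1 were 10.8, 12.9 and 10.5 in Ybx1cmKO hearts and 13.9, 13.3 and 13.2 in Control hearts. This ratio was lower in each Ybx1cmKO heart than in every Control heart, though Ybx1cmKO heart 2 lay close to them. Per base of transcript the ratio was 6.87 ± 0.82 in Ybx1cmKO hearts and 8.12 ± 0.21 in Control hearts (SD, n = 3 each). A mitochondrial ribosome holds 1 copy of each rRNA. The A runs shown above, 4 in mt-Rnr2 and none in mt-Rnr1, stand beside this ratio, and their part in it was not tested. Of the mRNAs, whose levels are given below, mt-Nd2 held 3 runs of at least 6 A. mt-Nd4 and mt-Nd5 held 2 each, and mt-Nd1 and mt-Co1 held 1 each. The other mRNAs held none, among them mt-Co3 and mt-Co2, which had the most counts per kilobase, and mt-Nd6, which had the fewest.

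Levels of the mRNAs could be read only after their nuclear copies were counted. Stretches of mitochondrial DNA inserted in the nuclear genome are annotated as pseudogenes, and 18 of them aligned to 11 of the members at 85% identity or more over at least 100 bases. Gm28437 was identical to mt-Co3 over 783 bases, and the count of mt-Co3 minus that of Gm28437 was -0.0054% to -0.0037% of mt-Co3 over the 6 libraries. Gm28661 was identical to mt-Co2 over 681 bases (-0.0344% to -0.0233% of mt-Co2), and Atp6-ps to mt-Atp6 over 678 bases (-0.187% to -0.138% of mt-Atp6). Gm10222 had 98.4% to 99.0% of the counts of mt-Nd4l, and Gm28438 had 49.95% to 49.98% of those of mt-Nd3. The equal or nearly equal counts are what a counter gives that shares a read between identical places. The counts of Gm28438 and mt-Nd3 were not equal, and whether other places took part of these reads was not tested. The 18 copies held 11.985%, 14.035% and 12.238% of all counts in Ybx1cmKO hearts and 11.652%, 13.972% and 12.465% in Control hearts. Together with them mitochondrial sequence took up 58.6%, 63.1% and 47.4% of counts in Ybx1cmKO hearts and 59.9%, 68.1% and 57.2% in Control hearts.

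The copies changed the order of the genes. With them added, a step chosen after the counts had been seen, mt-Co3 had the most counts per kilobase of the mRNAs in Ybx1cmKO hearts. It was at 135310 normalised CPM per kb in Ybx1cmKO hearts and 136760 in Control hearts. mt-Co2 was at 121090 in Ybx1cmKO hearts and 141070 in Control hearts. On their own rows alone mt-Co3 was at 67660 in Ybx1cmKO hearts and mt-Co2 at 58417. The rRNA mt-Rnr2 was at 107110 per kb in Ybx1cmKO hearts and 150070 in Control hearts. In Ybx1cmKO hearts mt-Atp6 followed with 47708 per kb, mt-Nd1 with 37866, mt-Nd3 with 37810, mt-Cytb with 32111 and mt-Nd4 with 22641. In Control hearts these genes had 56860 (mt-Atp6), 45896 (mt-Nd1), 47483 (mt-Nd3), 36293 (mt-Cytb) and 25526 (mt-Nd4) per kb. mt-Nd1 and mt-Nd3, neighbours in this order, lay closer to each other than the spread between hearts of a group. The low end in Ybx1cmKO hearts was made up of mt-Nd2 (7772 per kb), mt-Co1 (6156), mt-Nd4l (1379), mt-Nd5 (1330), mt-Atp8 (278) and the one minus-strand mRNA, mt-Nd6 (56.0). In Control hearts they were at 10142 (mt-Nd2), 8416 (mt-Co1), 1827 (mt-Nd4l), 1621 (mt-Nd5), 401 (mt-Atp8) and 123 (mt-Nd6) per kb, in the same order. This is an order of counts per length in oligo(dT)-primed libraries, not of numbers of RNA molecules. The part of priming and of read position along a transcript in it was not tested.

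**Figure D3:**
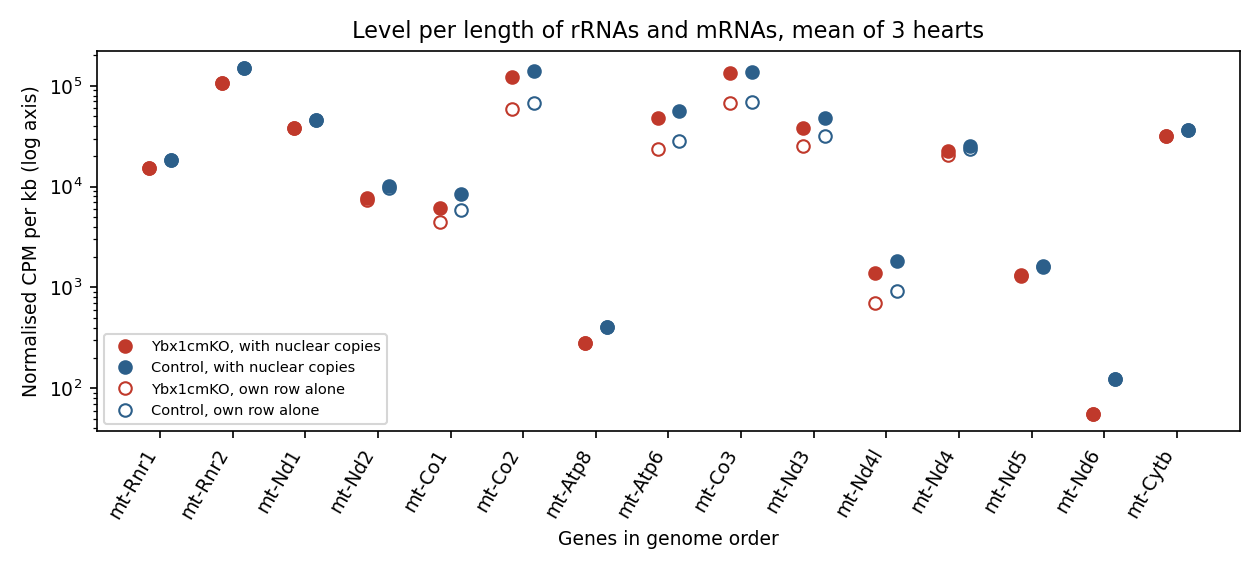
Mean normalised CPM per kb of the rRNAs and mRNAs in genome order, on a log axis, for Ybx1cmKO (red, left) and Control (blue, right) hearts; filled points include the counts of nuclear copies and open points show the gene's own row. The open points lie clearly below the filled ones for mt-Co1, mt-Co2, mt-Atp6, mt-Co3, mt-Nd3 and mt-Nd4l.

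Of the complex I genes, 6 lie on the plus strand and had log2 fold changes of -0.17 to -0.40. mt-Nd1, a core membrane subunit, was at 31455, 45623 and 31648 normalised CPM in Ybx1cmKO hearts and at 39288, 55885 and 36567 in Control hearts, with Ybx1cmKO heart 2 inside the Control range (log2 fold change -0.28, SE 0.32). mt-Nd4 was at 19608, 38766 and 27535 in Ybx1cmKO hearts and 30158, 39458 and 27317 in Control hearts (-0.17, SE 0.34). Heart 1 of the Ybx1cmKO group was the low one for mt-Nd4, and without it the sign turned, to 0.03. The other plus-strand subunits were at -0.38 (mt-Nd2), -0.33 (mt-Nd3), -0.40 (mt-Nd4l) and -0.28 (mt-Nd5), each overlapping between groups and each lower than 0 in all 6 fits that left out a heart.

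mt-Cytb, the mitochondrial subunit of complex III, had 30869, 46673 and 32663 normalised CPM in Ybx1cmKO hearts and 35805, 53515 and 35200 in Control hearts (-0.18, SE 0.32), which overlapped, and its log2 fold change was 0.04 without Control heart 2. The 3 complex IV genes encode its catalytic core. mt-Co1 was at 5729, 8891 and 5821 in Ybx1cmKO hearts and at 8209, 11208 and 7641 in Control hearts (-0.40, SE 0.29). mt-Co2 was at 34015, 50924 and 34932 in Ybx1cmKO hearts and 39863, 60097 and 39643 in Control hearts (-0.22, SE 0.33). For both genes 2 of the Ybx1cmKO hearts lay below all Control hearts and heart 2 did not. mt-Co3 was at 50574, 65359 and 43203 in Ybx1cmKO hearts and 44007, 67226 and 49558 in Control hearts. Its fold change was nearest to 0 of all 31 (-0.01, interval -0.75 to 0.72).

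Of the ATP synthase genes, mt-Atp8 and mt-Atp6 overlap by 43 bases on the same strand. mt-Atp8 had 51.9, 70.9 and 47.4 normalised CPM in Ybx1cmKO hearts and 70.0, 108 and 67.5 in Control hearts (-0.53, SE 0.25, edgeR adjusted p = 0.694), and mt-Atp6 had a log2 fold change of -0.25 (SE 0.32). On own rows, counts of mt-Atp8 per 1000 counts of mt-Atp6 were 3.90, 3.29 and 3.44 in Ybx1cmKO hearts and 4.31, 4.33 and 4.01 in Control hearts. All Ybx1cmKO hearts lay below all Control hearts in this ratio. Another overlapping pair, mt-Nd4l and mt-Nd4 with 7 shared bases, had 8.55, 7.51 and 5.81 counts per 1000 in Ybx1cmKO hearts and 9.50, 8.38 and 7.38 in Control hearts, with overlap. This ratio too is of own rows. Left out are Atp6-ps and Gm10222, whose counts nearly equalled those of mt-Atp6 and mt-Nd4l, so the levels of the ratios cannot be compared between the pairs.

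The tRNAs with the most counts were mt-Tl1 and mt-Ti, which together held 76.2%, 67.0% and 68.7% of tRNA counts in Ybx1cmKO hearts and 73.1%, 69.6% and 62.5% in Control hearts. mt-Tl1, which follows mt-Rnr2 directly, was at 177, 136 and 88.0 normalised CPM in Ybx1cmKO hearts and 178, 293 and 155 in Control hearts (-0.64, SE 0.32). mt-Ti, which shares 2 bases with the end of mt-Nd1, was at 65.7, 146 and 71.4 in Ybx1cmKO hearts and 109, 176 and 114 in Control hearts (-0.49, SE 0.34). Both overlapped between groups. They also overlapped when set against the neighbour, with 0.870, 0.608 and 1.08 counts of mt-Tl1 per 1000 of mt-Rnr2 in Ybx1cmKO hearts and 0.790, 0.966 and 0.849 in Control hearts.

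mt-Tw, the tryptophan tRNA, had the smallest p of all members. It was at 14.2, 30.6 and 15.9 normalised CPM in Ybx1cmKO hearts and 29.0, 47.8 and 49.3 in Control hearts. Ybx1cmKO heart 2 reached just above the lowest Control heart. The log2 fold change was -1.06 (SE 0.33, interval -1.82 to -0.30, edgeR unadjusted p = 0.0118, adjusted p = 0.694). It shares 2 bases with mt-Nd2. Set against the own row of mt-Nd2, it had 2.171, 2.897 and 2.698 counts per 1000 in Ybx1cmKO hearts and 3.23, 3.65 and 6.27 in Control hearts, without overlap. The 11 tested tRNAs of the plus strand had a median log2 fold change of -0.39, from -1.06 for mt-Tw to -0.17 for mt-Th.

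With all 6 hearts the minus-strand genes had the lowest log2 fold changes, an order that did not hold without single hearts. The 5 tested tRNAs had a median of -1.33, all 5 at or below -1.07, and the mRNA mt-Nd6, a complex I subunit, was at -1.14. Without Ybx1cmKO heart 3, mt-Nd6 was at -0.71, mt-Ts1 at -0.71, mt-Tq at -0.78, mt-Tp at -1.01, mt-Te at -1.16 and mt-Ta at -1.50, while mt-Tw of the plus strand was at -0.91. Without Control heart 2, mt-Nd6 was at -0.52, mt-Ts1 at -0.86, mt-Te at -0.93, mt-Tq at -0.99, mt-Tp at -1.05 and mt-Ta at -1.68, while mt-Tw was at -0.97. mt-Nd6 (ENSMUSG00000064368) had 30.6, 47.1 and 9.31 normalised CPM in Ybx1cmKO hearts and 28.1, 109 and 54.2 in Control hearts (SE 0.60). mt-Ta had 2.85, 2.95 and 0.333 in Ybx1cmKO hearts and 2.42, 12.2 and 10.2 in Control hearts (-2.04, SE 0.73, interval -3.71 to -0.38). Control heart 1 was as low as the Ybx1cmKO hearts for both genes, and Ybx1cmKO heart 3 was lowest.

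mt-Te was also lowest in Ybx1cmKO heart 3 and highest in Control heart 2, at 2.03, 6.13 and 0.721 normalised CPM in Ybx1cmKO hearts and 2.66, 16.5 and 8.20 in Control hearts (-1.65, SE 0.77). mt-Tp was at 2.1003, 3.4789 and 1.2195 in Ybx1cmKO hearts and 2.18, 7.74 and 6.94 in Control hearts (-1.33, SE 0.51). mt-Ts1 was at 1.2196, 2.9495 and 0.776 in Ybx1cmKO hearts and 2.90, 4.42 and 2.91 in Control hearts (-1.07, SE 0.47), and mt-Tq had a log2 fold change of -1.14. Malat1 was at 5621, 3677 and 561 in Ybx1cmKO hearts and 4365, 9831 and 3187 in Control hearts, so its lowest and highest libraries were those of mt-Nd6 and mt-Te, and its part in these values was not tested.

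Summed over the 9 minus-strand genes there were 2.04, 2.20 and 0.670 counts per 10000 counts of plus-strand mRNA (own rows, without copies) in Ybx1cmKO hearts and 1.75, 4.67 and 4.03 in Control hearts, with overlap through Control heart 1. The library protocol as described has no step that marks strand, so reads of the minus-strand genes and of plus-strand precursors across them cannot be told apart. With the low-count filter lifted, edgeR called 8 members lower in Ybx1cmKO hearts, of which 7 were minus-strand genes (mt-Ta, mt-Tn, mt-Tc, mt-Ty, mt-Nd6, mt-Te and mt-Tp) and the eighth was mt-Tw, beside 0.4% of all genes. In that fit the fold change of mt-Ta was -2.03 with an SE of 0.31, against 0.73 with the filter, and 3 of the 8 were genes that the filter removes.

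**Figure D4:**
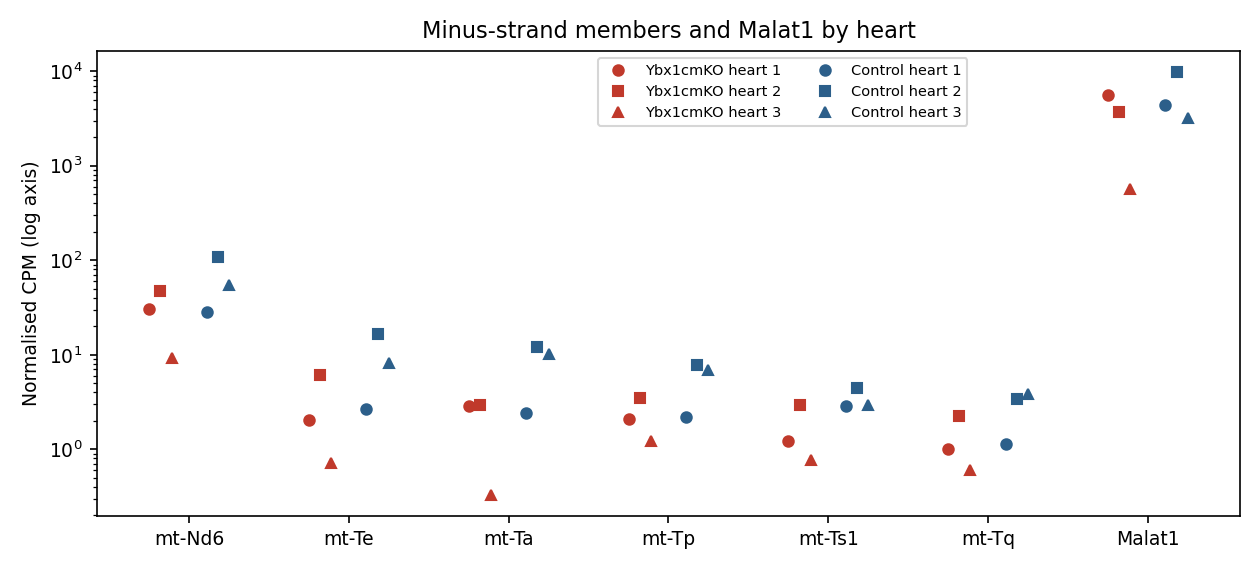
Normalised CPM (log axis) of mt-Nd6, of the 5 tested minus-strand tRNAs and of Malat1 in each heart, Ybx1cmKO in red on the left and Control in blue on the right, with the heart number shown by the symbol. Ybx1cmKO heart 3 is the lowest point for all 7 genes, and Control heart 1 lies near the Ybx1cmKO hearts for mt-Nd6, mt-Te, mt-Ta, mt-Tp and mt-Tq.

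Because the mitochondrial share differed between hearts, each gene was also set against the plus-strand mitochondrial mRNA of its own heart, copies included. This scale was chosen after the data had been seen. On it 7 of the 31 tested members had Ybx1cmKO values all below the Control values, and none had them all above, beside 2.06% and 2.16% of all genes. The 7 were mt-Nd1, mt-Co1, mt-Atp8, mt-Tv, mt-Tw, mt-Ts1 and mt-Tt. With the copies left out of all counts there were 6, without mt-Tt, beside 1.75% of all genes. Without Ybx1cmKO heart 3 there were 8 below, the 7 and mt-Co2, beside 2.97% of all genes, and mt-Co3 lay above. Nearly all of the genes behind these percentages are nuclear, and on this scale they vary with the mitochondrial share of each library.

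Within the mRNA, the spread between hearts of a group differed by gene. mt-Nd4 was 6.94%, 9.28% and 9.57% of plus-strand mRNA counts in Ybx1cmKO hearts and 9.547%, 8.212% and 8.401% in Control hearts, with Ybx1cmKO heart 1 lowest and the others overlapping. mt-Co1 was 2.49%, 2.78% and 2.60% of plus-strand mRNA counts in Ybx1cmKO hearts and 3.395%, 3.170% and 3.042% in Control hearts. mt-Nd1 was 10.1%, 9.96% and 10.3% in Ybx1cmKO hearts and 11.2%, 10.8% and 10.4% in Control hearts, where the highest Ybx1cmKO heart and the lowest Control heart lay 0.1 points apart. mt-Atp8 was 0.0167%, 0.0155% and 0.0154% in Ybx1cmKO hearts and 0.0200%, 0.0209% and 0.0191% in Control hearts. mt-Co3, the largest part of the mRNA, ran the other way, with 32.5%, 28.5% and 28.0% in Ybx1cmKO hearts and 25.1%, 26.0% and 28.1% in Control hearts, and overlapped. These shares are parts of 1 sum, so a higher share of mt-Co3 lowers those of the other mRNAs.

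Against the plus-strand mRNA counts without copies, the plus-strand tRNAs together had 15.2, 13.3 and 11.1 counts per 10000 in Ybx1cmKO hearts and 16.2, 18.1 and 16.8 in Control hearts, so each Ybx1cmKO heart was below each Control heart. The 6 tRNAs too low to test had 1 to 12.25 counts in each Ybx1cmKO library and 2 to 50 in each Control library, too few to compare.

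**Figure D5:**
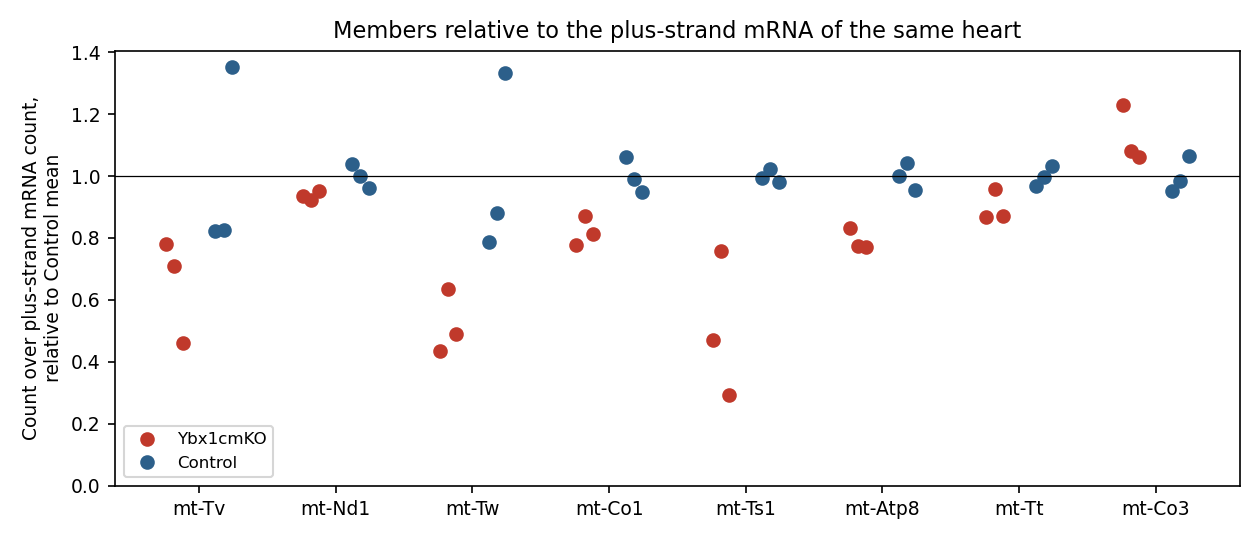
Counts over the plus-strand mitochondrial mRNA counts of the same heart, divided by the Control mean, for the 7 members whose groups did not overlap and for mt-Co3; Ybx1cmKO hearts in red on the left, Control hearts in blue on the right, 3 points each. The 7 members have all red points below all blue points, by little for mt-Nd1 and mt-Tt, while mt-Co3 has 2 red points above every blue point and the other within them.

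The respiratory complexes also need subunits made from nuclear genes, and with all hearts most of these lay on the other side of 0. Of the 82 tested nuclear genes of complexes I, III, IV and V, 65 lay above 0 and 17 below (median 0.14), and none passed the test. Over all genes 48.9% lay below 0. Nuclear subunit mRNA made up 2.48%, 2.91% and 5.10% of all counts in Ybx1cmKO hearts and 3.07%, 2.04% and 3.51% in Control hearts. Ybx1cmKO heart 3 was the highest, and the other Ybx1cmKO hearts lay within the Control range. By complex the medians were -0.33 for the mitochondrial and 0.11 for the nuclear genes of complex I, -0.18 and 0.16 for complex III, -0.22 and 0.20 for complex IV, and -0.39 and 0.12 for ATP synthase. Without copies, counts of mitochondrial over nuclear subunit mRNA were 8.94, 9.38 and 4.80 in Ybx1cmKO hearts and 7.72, 13.6 and 6.89 in Control hearts. Ybx1cmKO heart 3 was lowest and Control heart 2 highest, and the difference of the log2 ratio, -0.28, was 0.03 without Ybx1cmKO heart 3 and 0.02 without Control heart 2. Of 78 nuclear genes of mitochondrial ribosomal proteins, which bind the 2 rRNAs, 62 lay above 0 (median 0.21) and none passed the test. The directions of these genes and of the nuclear subunit genes without Ybx1cmKO heart 3 are not given here.

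The 56 listed nuclear genes that make, cut, tail and modify mitochondrial RNA were all tested, and none passed in edgeR, DESeq2 or limma. In edgeR 2 of 56 had an unadjusted p under 0.05, beside 5.14% of all genes. Of the log2 fold changes 32 lay above 0 and 24 below, beside 48.9% of all genes below, and the median was 0.14. The groups did not overlap for 4 genes higher in Ybx1cmKO hearts (Tfam, Tfb1m, Pde12 and Trub2), beside 6.26% of all genes, and for 2 lower ones (Tbrg4 and Rpusd3), beside 5.82%. These shares lie near those of all genes, and Trub2 and Rpusd3 were named after their values had been seen. Of the 12 genes listed under transcription and its termination, 8 lay above 0 (median 0.15). That list also holds Tfb1m, Top1mt and Rnaseh1, so it is wider than transcription itself. The 13 processing genes had 7 above 0 (0.18), the 8 genes of polyadenylation, stability and decay 6 (0.26) and the 23 modification genes 11 (-0.003).

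Among them Tfam, which packages mitochondrial DNA and starts its transcription, had the smallest p. It was at 8.54, 8.02 and 14.9 normalised CPM in Ybx1cmKO hearts and 6.53, 5.90 and 6.68 in Control hearts, without overlap (0.72, SE 0.27, edgeR adjusted p = 0.694). Tfb1m, a methyltransferase of the small rRNA, was at 1.2196, 1.8151 and 1.6075 in Ybx1cmKO hearts and 0.887, 1.11 and 0.728 in Control hearts, also without overlap (0.78, SE 0.34). Pde12, which removes A tails from mitochondrial RNA, was at 7.32, 7.34 and 9.31 in Ybx1cmKO hearts and 6.13, 5.53 and 6.15 in Control hearts (0.43, SE 0.20).

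Of the others with small p, Tefm, the elongation factor of the mitochondrial polymerase, had a log2 fold change of 0.69, Grsf1, an RNA granule protein, of 0.51, and Trmt10c, a subunit of mitochondrial RNase P, of 0.67, all with overlapping groups. Tbrg4, a protein of the FASTK family that acts on mitochondrial RNA, was at 27.03, 34.87 and 24.002 in Ybx1cmKO hearts and 35.2, 38.7 and 36.5 in Control hearts (-0.36, SE 0.19), and Trmt1, a tRNA methyltransferase, had a log2 fold change of -0.65. Tfam, Tefm, Grsf1 and Trmt10c were each highest in Ybx1cmKO heart 3, the library with the lowest mitochondrial share, and without it Tfam was at 0.38, Tefm at 0.29, Grsf1 at 0.23 and Trmt10c at 0.16.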

How the data were processed

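RNA-seq of 6 mouse hearts was read from 1 deposited table with estimated counts and CPM per gene. Per the submitters' processing notes, reads were handled on build mm39 with STAR 2.7.11, featureCounts from no stated release, Subread 2.1.1, SAMtools 1.22.1 and edgeR 4.0.16. The notes give these tools no role or setting. The annotation release and the handling of multi-mapped reads are not given in the sources used here. In each library 21.3% to 22.7% of the deposited estimated counts above 0 were not whole numbers (tolerance 0.001). The deposited CPM equalled the count scaled by the column total, so it held no scaling between libraries. The 92 spike-in rows held 0 counts. Every pair of libraries differed beyond sampling noise (chi-square test), so each was taken as a sample, and p-values measure the spread between these hearts.

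Estimated counts were rounded and tested with edgeR 4.0.16 in R 4.3.3 (quasi-likelihood test, TMM scaling, CPM of at least 1 in at least 3 libraries, two-sided, Benjamini-Hochberg over 13717 genes, threshold 0.05). Standard errors come from the F statistic. The procedure was also run on simulated counts, with the same dispersion set for every gene and no library standing apart. The simulation therefore cannot tell how the test performs with a library such as Ybx1cmKO heart 3. Alternatives were DESeq2 1.42.0, limma-trend 3.58.1 on log2(CPM + 0.5) or log2(CPM + 1), other scalings, no filter, the heart number as a block, and leaving out each heart. Named genes were all mRNAs, rRNAs and tRNAs, the 8 nuclear genes of the machinery list with the smallest p, the 4 copies with the highest CPM, Ybx1, Malat1 and Neat1. Nuclear copies were found by aligning GENCODE M21 pseudogene transcripts with BLAST+ 2.17.0. The members and lists were chosen with earlier results of these data known.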

Additional observations from a re-analysis of the deposited data

How the results depend on the processing

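Of 755 values recomputed for 57 results, 712 were labelled the same. For named genes this means the same sign and side of the threshold, which few could change with 0 calls in the main fit. For medians and class ratios it means the same sign and a move smaller than the SD between hearts. The log2 ratio of rRNA to mRNA, -0.37 and -0.01 without Ybx1cmKO heart 3, was thus labelled the same. For numbers of genes called it means an equal number. Of the other values 26 turned sign, 16 were stronger and 1 moved further. The genes called over all genes, 0 in edgeR, were 15 in DESeq2, 133 without the filter, 1 in limma-trend on log2(CPM + 1) and 0 to 1 with a heart left out (1 without Ybx1cmKO heart 3). Same-numbered hearts of the 2 groups had correlations of -0.11, 0.46 and 0.59 in their deviations, and hearts of different numbers had -0.70 to 0.58. These values do not settle whether the numbers pair the hearts, and the main fit did not pair them. With the replicate block there were 5 calls, Ybx1 among them, and 1807 genes had an edgeR unadjusted p under 0.05, beside 705 in the main fit. Members called were 8 without the filter and 0 under every other alternative. The log2 ratio of the mRNA share, -0.03, was -0.18 over the counts of all genes other than the members, and -0.11 to 0.039 with a heart left out. Those other genes include the nuclear copies, whose counts may be shared mitochondrial reads. The difference in mitochondrial over nuclear subunit mRNA was -0.47 to 0.029 with a heart left out. mt-Co3 and its copy Gm28437 were at 0.14 with library totals, 0.0072 without the filter, 0.15 in limma-trend with either pseudocount and -0.21 to 0.17 with a heart left out. Other log2 fold changes that turned sign with a heart left out were those of mt-Rnr1 (-0.50 to 0.035), mt-Nd4 (-0.47 to 0.033), mt-Th (-0.55 to 0.19), mt-Ts2 (-0.68 to 0.15), mt-Cytb (-0.40 to 0.036) and Neat1 (-0.62 to 0.27). The median of the mRNAs, -0.28, was -0.52 to -0.08. The causes were not tested. Summing copies into the members turned no sign. The 6 untested tRNAs had 25 to 120 counts in all, which limits what can be said of them.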

Other observations

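The 4 nuclear copies with the most counts had the fold changes of the genes they copy. The log2 fold change was -0.01 for Gm28437, -0.22 for Gm28661, -0.25 for Atp6-ps and -0.33 for Gm28438. Gm11410, a copy of mt-Cytb at 92.9% identity, was at 4.29 ± 0.96 normalised CPM in Ybx1cmKO hearts and 3.53 ± 0.67 in Control hearts (SD, n = 3 each) with a log2 fold change of 0.28, against -0.18 for mt-Cytb. Neat1, another nuclear RNA, was at 801, 842 and 123 normalised CPM in Ybx1cmKO hearts and at 486, 1134 and 484 in Control hearts, with Ybx1cmKO heart 3 lowest as for Malat1. Genes of the annotation class TEC summed to 2313, 1586 and 669 deposited CPM in Ybx1cmKO hearts and 2160, 2497 and 1707 in Control hearts. Of the nuclear regulators of mitochondrial genes, Ppargc1b, a co-activator, was at 38.1, 34.8 and 28.2 normalised CPM in Ybx1cmKO hearts and 55.0, 41.8 and 39.3 in Control hearts (log2 fold change -0.43). It was named after its values had been seen, as the member of that list whose groups did not overlap.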
